A study of Mus musculus with 9 samples.

Results

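The BCL2 family genes that decide whether a T cell survives or dies were followed through anti-CD3/CD28 stimulation of mouse splenic CD4+ T cells, without and with TRAIL. Members were chosen by symbol, as 5 genes of anti-apoptotic proteins (Bcl2, Bcl2l1, Mcl1, Bcl2a1b and Bcl2a1d), 3 genes of BH3-only proteins (Bcl2l11, Bbc3 and Pmaip1) and the 2 genes of the pore-forming effectors (Bax and Bak1). All 10 were found among the 55487 genes listed, and all 10 were among the 15536 that reached 1 TPM in 3 or more libraries and were tested. TPM, a measure of transcript abundance, divides the reads of a gene by its length and scales every library to the same total, so levels of different genes can be set side by side. The values say what share of the transcripts a gene holds, and not how much RNA or protein there was per cell.

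RNA was sequenced from 9 libraries of wild-type C57BL/6 (Trail-r+/+) mice, females of 6 to 7 weeks, in 3 groups of 3. CD4+ T cells were taken from the spleen by negative selection with a kit, so that what the antibodies failed to remove stayed with the cells. The medium group was kept in culture medium without Abs, for a time that the labels do not give. The stimulated group was given Abs against CD3 (3 µg/ml), a part of the TCR, and against the costimulatory receptor CD28 (2 µg/ml) for 24 h. The TRAIL-treated group was given the same Abs together with TRAIL (10 µg/ml) for 24 h. TRAIL, a TNF family cytokine, binds the death receptor TRAIL-R. No group received TRAIL without Abs, so the comparison of TRAIL-treated with medium libraries changes Abs and TRAIL together. Nothing says whether the libraries of a group came from separate mice or cultures, and the p-values therefore measure the spread between these libraries, which may be technical.

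The family controls the mitochondrial, or intrinsic, pathway of apoptosis. Bax and Bak proteins can form pores in the outer mitochondrial membrane through which cytochrome c escapes to activate caspases. The anti-apoptotic members hold them in check, and the BH3-only proteins bind and neutralize the anti-apoptotic members or activate the effectors directly. Naive T cells are known to depend on Bcl2 and Mcl1, activated T cells also use Bcl2l1 and Bcl2a1, and Bim, the product of Bcl2l11, is known for the death of T cells after an immune response. Death receptors such as TRAIL-R can reach the same pathway through Bid, a BH3-only protein that caspase-8 cleaves. Much of the control of these proteins is known to act after transcription and is not seen in RNA.

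The sequences that bear on the results are shown first. Bcl2a1b and Bcl2a1d belong to a cluster of near-identical copies of the Bcl2a1 gene on chromosome 9. In GENCODE M21 (GRCm38) their coding sequences are 519 bases long each and differ at 6 positions, an identity of 98.8%. The first 90 coding bases of each follow, with the bases at which they differ in capitals.
Bcl2a1b: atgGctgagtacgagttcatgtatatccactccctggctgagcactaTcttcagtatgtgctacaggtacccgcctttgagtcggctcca
Bcl2a1d: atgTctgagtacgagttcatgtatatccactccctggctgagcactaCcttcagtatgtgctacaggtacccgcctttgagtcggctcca
Of the 668 stretches of 150 bases in the Bcl2a1b transcript, 95 (14.2%) occur unchanged in the Bcl2a1d transcript, and 150 bases was the read length. How the reads shared between the copies were divided is not given in the sources used here, so the level of each copy is less certain than the sum. The window of 250 bases before and 50 bases after the transcript start was also searched in RefSeq (GRCm38.p6), where 9 of the 10 members had an entry, with 14 windows in all. The motifs searched, on both strands, were the consensus of NF-kB, GTAAACA for FOXO, TGANTCA for AP-1 and TGACGTCA for CRE. The windows of Bcl2a1b at chr9:89199023-89199322 (plus strand) and Bcl2a1d at chr9:88731801-88732100 (minus strand) each hold an AP-1 match, in capitals, and are shown because the 2 copies moved together.
Bcl2a1b: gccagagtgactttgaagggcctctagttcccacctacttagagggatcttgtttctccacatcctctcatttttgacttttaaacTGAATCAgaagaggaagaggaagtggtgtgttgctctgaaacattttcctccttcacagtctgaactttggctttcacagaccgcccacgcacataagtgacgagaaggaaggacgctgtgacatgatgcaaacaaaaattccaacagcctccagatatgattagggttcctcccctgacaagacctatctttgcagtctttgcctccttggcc
Bcl2a1d: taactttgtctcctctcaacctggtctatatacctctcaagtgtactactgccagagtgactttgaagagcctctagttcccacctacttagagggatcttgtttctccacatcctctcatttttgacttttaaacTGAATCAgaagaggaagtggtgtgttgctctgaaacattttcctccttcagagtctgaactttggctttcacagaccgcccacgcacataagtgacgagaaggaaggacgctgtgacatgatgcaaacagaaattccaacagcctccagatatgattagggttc
The match starts 164 bases before the start of Bcl2a1b and 114 bases before that of Bcl2a1d. The same letters are in 7.81% of all 32851 windows of this length. The FOXO letters, shown in capitals, were found in a window of Bcl2l11 at chr2:128125788-128126087 (plus strand), 227 bases before the start, and on the opposite strand in a window of Bbc3 at chr7:16310011-16310310 (plus strand), 167 bases before the start. These 2 windows are shown because both genes were higher with TRAIL than with stimulation alone. The other windows of Bcl2l11 and Bbc3 held no FOXO match. Mcl1 also passed as higher in that comparison (0.22), and its window held no FOXO match. Pmaip1, with the largest rise of a member there (1.80), was the member without a window. A link between the FOXO letters and the rise was not tested.
Bcl2l11: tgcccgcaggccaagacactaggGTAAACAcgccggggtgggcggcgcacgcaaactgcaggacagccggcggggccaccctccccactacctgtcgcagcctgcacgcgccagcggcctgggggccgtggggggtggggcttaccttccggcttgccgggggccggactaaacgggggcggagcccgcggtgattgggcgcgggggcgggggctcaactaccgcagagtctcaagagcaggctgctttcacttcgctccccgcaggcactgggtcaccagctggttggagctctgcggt
Bbc3: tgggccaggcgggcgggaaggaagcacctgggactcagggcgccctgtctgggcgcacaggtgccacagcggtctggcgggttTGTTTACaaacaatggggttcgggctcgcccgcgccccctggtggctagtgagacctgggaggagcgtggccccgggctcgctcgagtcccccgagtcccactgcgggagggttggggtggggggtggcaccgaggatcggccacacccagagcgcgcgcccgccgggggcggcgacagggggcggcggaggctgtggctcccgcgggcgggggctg
The FOXO letters are in 3.65% of all windows. The NF-kB letters (1.47% of all windows) and the CRE letters (1.79%) were in 0 of the 14 windows of members. A match describes the letters only, and binding was not measured.

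Markers of other spleen cells moved with the groups. The summed level of 8 B cell markers was 5802 to 6414 TPM in medium, 686 to 746 TPM after stimulation and 2955 to 3416 TPM with TRAIL, and that of 9 macrophage or monocyte markers was 1578 to 1720, 36.3 to 43.2 and 1285 to 1440 TPM. The sum of 8 T cell markers was 3121 to 3353 TPM in medium, 3038 to 3152 TPM after stimulation and 3181 to 3503 TPM with TRAIL, and all 8 were detected in every group. Within that sum Cd3g, a TCR subunit, was at 615, 299 and 595 TPM and was called lower with stimulation at -1.04, and Cd2, an adhesion receptor, was at 392, 839 and 446 TPM and was called higher at 1.09 (adjusted p = 4.1e-06 and 8.2e-07, limma), both named after their values were seen. In bulk RNA, fewer cells of a type and less RNA per cell cannot be told apart, and the part of these other cells in the members' values was not tested. Stimulated replicate 1 was the lowest of the 3 stimulated libraries for Bcl2, Bcl2l1, Mcl1, Bcl2l11, Bbc3 and Bak1 and the highest for Bcl2a1b, Bcl2a1d, Pmaip1 and Bax. The margin to the next library was small for some of them, such as Bbc3 (19.05 beside 19.14 TPM) and Pmaip1 (16.5 beside 16.0 TPM).

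The test was limma's on log2(TPM + 1), and Benjamini-Hochberg adjustment ran over all 15536 genes. A gene "passed" at an adjusted p under 0.05, and was "called" when its log2 fold change was also at least 1 in size. A fold change on this scale understates the change of low genes. The comparisons share groups, so their values stand side by side and are not independent of each other.

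**Figure D1:**
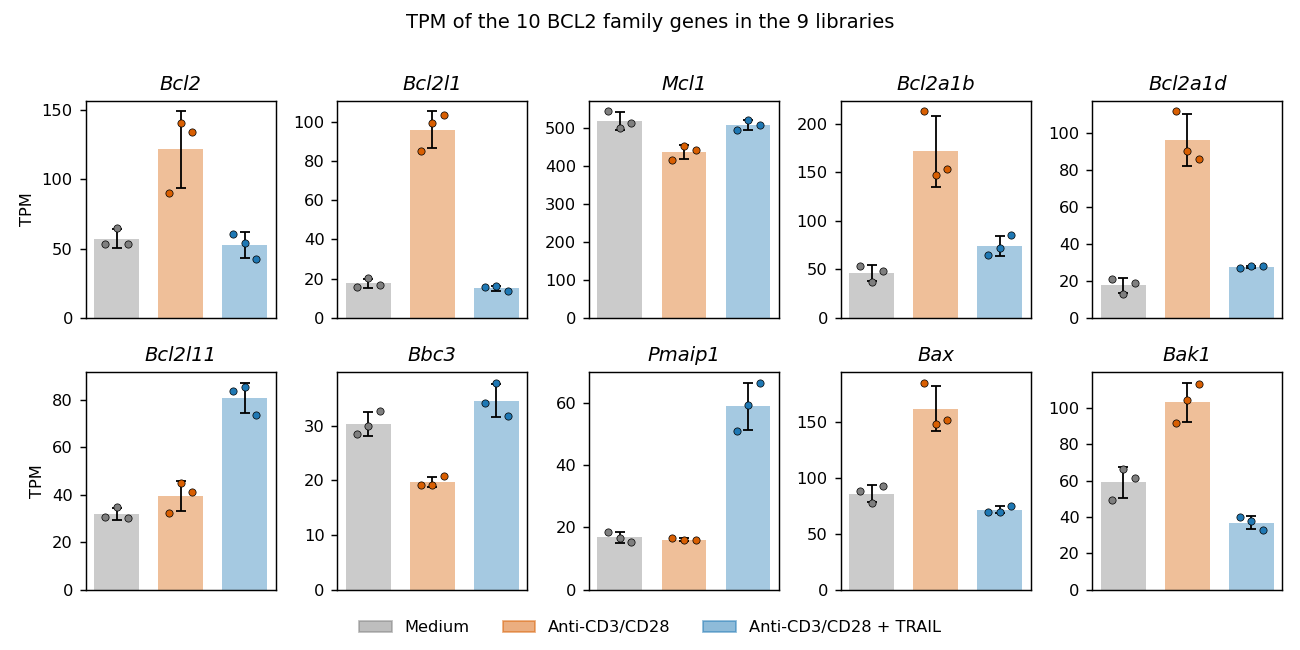
TPM of each of the 10 BCL2 family genes in the 9 libraries, on an axis from 0 for each gene, with 1 point per library, a bar at the mean of each group and an error bar of 1 SD (n = 3). Bcl2l1 stands at 85.2 to 103 TPM in the stimulated libraries and at no more than 20.2 TPM elsewhere, whereas Bcl2l11 and Pmaip1 are highest in the TRAIL-treated libraries.

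Of the 5 anti-apoptotic genes, 4 rose with stimulation and were lower again with TRAIL, whereas 2 of the BH3-only genes were higher with TRAIL than in either other group. For stimulated against medium libraries, 4 of the 10 members were called higher, Bcl2, Bcl2l1, Bcl2a1b and Bcl2a1d, and 0 lower, where 31.9% of all genes tested were called (12.4% higher, 19.5% lower). At the p alone, 6 members passed as higher (28.8% of all genes) and 2 as lower (40.0%), beside 68.7% of all genes in either direction. The libraries of the 2 groups did not overlap for 8 members, beside 72.6% of all genes. For TRAIL-treated against stimulated libraries, 6 members were called lower, Bcl2, Bcl2l1, Bcl2a1b, Bcl2a1d, Bax and Bak1, and 2 higher, Bcl2l11 and Pmaip1, where 30.9% of all genes were called (16.6% higher, 14.3% lower). All 10 members passed the p in that comparison, 4 as higher (33.5% of all genes) and 6 as lower (33.5%), beside 67.1% of all genes. For all 10 the libraries did not overlap, 4 higher (35.5% of all genes) and 6 lower (34.9%), beside 70.4% of all genes. For TRAIL-treated against medium libraries, 2 members were called higher, Bcl2l11 and Pmaip1, and 0 lower, beside 4.62% of all genes (2.49% higher, 2.13% lower). At the p alone, 4 members were higher (8.03% of all genes) and 1 lower (24.6%) there, beside 32.6% of all genes, and the libraries of 6 members did not overlap, beside 50.6%. The median log2 fold change of the members was 0.85, -1.17 and 0.08 in the 3 comparisons, beside medians of -0.15, 0.01 and -0.18 over all genes tested.

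Bcl2l1 (ENSMUSG00000007659, chr2:152780668-152831728, minus strand, GRCm38) encodes BCL-XL, which T cells are known to induce through CD28. It was at 15.9, 20.2 and 16.5 TPM in medium, at 85.2, 99.4 and 103 TPM after stimulation, and at 15.5, 16.2 and 13.7 TPM with TRAIL. Every stimulated library stood far above all others, and the medium and TRAIL-treated libraries overlapped. The rise with stimulation was 2.39 on the log2 scale (SE 0.12, adjusted p = 6.7e-08, limma), or 5.47-fold in mean TPM. With TRAIL the level fell by 2.59 (SE 0.12, adjusted p = 4.5e-08, limma), to 0.158 of the stimulated mean. Against medium the difference was -0.20 (95% interval -0.47 to 0.08, adjusted p = 0.253, limma), which did not pass. Of all members, Bcl2l1 had the largest fall with TRAIL.

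Bcl2a1b (ENSMUSG00000089929, chr9:89199209-89207827, plus strand) and Bcl2a1d (ENSMUSG00000099974, chr9:88723285-88731914, minus strand) encode A1, a short-lived anti-apoptotic protein of activated lymphocytes and granulocytes known as a target of NF-kB. Bcl2a1b was at 53.2, 37.4 and 48.3 TPM in medium, 213, 148 and 154 TPM after stimulation and 64.4, 72.2 and 85.6 TPM with TRAIL. Bcl2a1d was at 21.2, 13.0 and 18.7 TPM in medium, 112, 90.7 and 86.2 TPM after stimulation and 27.2, 28.0 and 28.1 TPM with TRAIL. Stimulated replicate 1 was the highest library for both copies. For each copy the 3 groups did not overlap, with TRAIL-treated libraries between the others and nearer to medium. With stimulation Bcl2a1b rose by 1.86 (SE 0.18, adjusted p = 6.0e-06, limma) and Bcl2a1d by 2.40 (SE 0.17, adjusted p = 5.7e-07, limma). With TRAIL they fell by 1.19 (SE 0.18, adjusted p = 1.7e-04, limma) and 1.75 (SE 0.17, adjusted p = 6.5e-06, limma) against stimulation alone. Against medium both copies passed as higher, at 0.67 (SE 0.18, adjusted p = 0.0166, limma) and 0.65 (SE 0.17, adjusted p = 0.0144, limma), short of a call. The pass of Bcl2a1b against medium did not hold without medium replicate 2 (adjusted p = 0.0567, limma), without TRAIL-treated replicate 3 (adjusted p = 0.0708, limma) or with no filter on low values (adjusted p = 0.0506, limma), and held in the other 16 of 19 alternatives. The call of Bcl2a1b against stimulation alone was lost under quantile scaling (-0.97). When Bcl2a1b, Bcl2a1d and the 2 further copies Bcl2a1a and Bcl2a1c were added before the fit, so that the division of shared reads among them mattered less, the 3 differences were 1.94, -1.36 and 0.58 (adjusted p = 3.2e-06, 4.7e-05 and 0.0251, limma). The sum still depends on that division in part, since TPM divides by transcript lengths that differ between the copies. Bcl2a1b held 2.66 ± 0.197 times the TPM of Bcl2a1d in medium, 1.77 ± 0.138 times after stimulation and 2.67 ± 0.348 times with TRAIL (SD, n = 3). Granulocytes also express A1. The 8 neutrophil markers summed to 796 to 1073 TPM in medium, 33.8 to 49.96 TPM after stimulation, where Retnlg was listed at 0.0001 TPM in every library, and 468 to 569 TPM with TRAIL, and their part in the levels of the copies was not tested. Gm29094, a gene on the same strand that shares 8449 bases with Bcl2a1b, did not exceed 10.3 TPM in any library.

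Bcl2 (ENSMUSG00000057329, chr1:106538178-106714274, minus strand) is the founding survival gene and supports resting T cells under IL-7. Its level was 53.5, 64.9 and 53.3 TPM in medium, 89.9, 141 and 134 TPM after stimulation and 60.9, 54.3 and 42.6 TPM with TRAIL. The stimulated libraries stood above all others, replicate 1 the lowest of them, and the medium and TRAIL-treated libraries overlapped. Bcl2 rose by 1.05 with stimulation (SE 0.19, adjusted p = 5.5e-04, limma), close to the threshold of a call, and the call was lost without stimulated replicate 2 (0.93) or 3 (0.97). With TRAIL it fell by 1.18 (SE 0.19, adjusted p = 2.5e-04, limma), to 0.432 of the stimulated mean, a call that was lost under quantile scaling (-0.997). Against medium the difference was -0.13 (95% interval -0.54 to 0.29, adjusted p = 0.623, limma), and its sign turned under median-of-ratios scaling (0.06), under quantile scaling (0.03) and without TRAIL-treated replicate 3 (0.01).

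Mcl1 (ENSMUSG00000038612, chr3:95658788-95663176, plus strand), whose protein is short-lived and known to be needed by T cells, had the highest level of the 10 genes in every library, and the largest of its 3 log2 differences (0.25 in size) was smaller than the largest of any other member. It was at 544, 498 and 513 TPM in medium, 415, 453 and 441 TPM after stimulation and 494, 520.1 and 508 TPM with TRAIL. The stimulated libraries were the lowest, and the other groups overlapped. The difference was -0.25 for stimulated against medium libraries (SE 0.08, adjusted p = 0.0206, limma) and 0.22 for TRAIL-treated against stimulated libraries (SE 0.08, adjusted p = 0.0371, limma), so Mcl1 went the opposite way to the other 4 anti-apoptotic genes. The median over all genes was -0.15 in the first of these comparisons and 0.01 in the second, and the pass of Mcl1 held in 15 of 19 alternative fits with stimulation and in only 10 of 19 with TRAIL (adjusted p from 0.0039 to 0.116, limma, for the latter). For TRAIL-treated against medium libraries the difference was -0.03 (95% interval -0.21 to 0.15, adjusted p = 0.801, limma), and its sign turned under median-of-ratios scaling and without medium replicate 1.

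Among the BH3-only genes, Bcl2l11 and Pmaip1 were higher with TRAIL than in both other groups. Bcl2l11 (ENSMUSG00000027381, chr2:128126038-128162547, plus strand) encodes Bim, which binds all anti-apoptotic members. It was at 30.7, 35.0 and 30.2 TPM in medium, 32.4, 44.9 and 41.1 TPM after stimulation and 83.7, 85.5 and 73.7 TPM with TRAIL. The medium and stimulated libraries overlapped, and every TRAIL-treated library was above all 6 of them. The difference with stimulation was 0.29 (95% interval -0.0037 to 0.58, adjusted p = 0.0732, limma) and did not pass, though it passed under median-of-ratios (0.38) and quantile scaling (0.40) and without stimulated replicate 1 (0.42). With TRAIL, Bcl2l11 rose by 1.03 against stimulation alone (SE 0.13, adjusted p = 5.3e-05, limma) and by 1.31 against medium (SE 0.13, adjusted p = 8.4e-05, limma), or 2.05-fold and 2.53-fold in mean TPM. The call against stimulation alone lies at the threshold of size and was lost at a pseudocount of 5 (0.96), without stimulated replicate 1 (0.90) and without TRAIL-treated replicate 2 (0.99). The call against medium held in 19 of 19 alternatives, from 1.22 to 1.52.

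Pmaip1 (ENSMUSG00000024521, chr18:66458533-66465565, plus strand) encodes Noxa, which binds MCL1 and A1 and is known as a target of p53 and of stress responses. It was at 18.5, 16.6 and 15.1 TPM in medium, 16.5, 16.0 and 15.8 TPM after stimulation and 51.0, 59.3 and 66.3 TPM with TRAIL. The medium and stimulated libraries overlapped, and the TRAIL-treated libraries stood far above them. Stimulation alone gave a difference of -0.05 (95% interval -0.32 to 0.21, adjusted p = 0.711, limma), the sign of which turned under median-of-ratios (0.04) and quantile scaling (0.16) and without medium replicate 1 (0.02). With TRAIL, Pmaip1 rose by 1.80 against stimulation alone (SE 0.12, adjusted p = 4.2e-07, limma) and by 1.75 against medium (SE 0.12, adjusted p = 6.3e-06, limma), the largest rise of a member in either comparison. The call against medium held in 19 of 19 alternatives, from 1.55 to 1.98. Markers of other cell types moved between the same groups. The summed level of each of the 6 marker lists of other cells (B cell, macrophage or monocyte, neutrophil, dendritic cell, erythroid, and CD8 T or NK cell) was lower in every TRAIL-treated library than in every medium library. In that order, the median log2 fold change of the lists there was -1.08, -0.13, -0.91, -0.58, -1.86 and -1.47, beside -0.18 over all genes. Of the 9 macrophage or monocyte markers, 2 passed as lower, beside 24.6% of all genes. Against stimulated libraries, however, the median log2 fold change with TRAIL was 2.40 for the B cell list, 5.45 for macrophage or monocyte, 3.37 for neutrophil, 1.65 for dendritic cell and 4.05 for erythroid markers, the same direction as Bcl2l11 and Pmaip1, and -0.18 for CD8 T or NK cell markers. The part of these cells in the 2 genes was not tested.

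Bbc3 (ENSMUSG00000002083, chr7:16308393-16318205, plus strand) encodes Puma, a BH3-only protein induced by p53 and by loss of survival signals. Its level was 28.4, 29.9 and 32.6 TPM in medium, 19.1, 19.1 and 20.8 TPM after stimulation and 34.1, 37.9 and 31.8 TPM with TRAIL. The stimulated libraries were below all others, and the medium and TRAIL-treated libraries overlapped. Bbc3 fell by 0.60 with stimulation (SE 0.10, adjusted p = 4.4e-04, limma) and was 0.78 higher with TRAIL than with stimulation alone (SE 0.10, adjusted p = 6.8e-05, limma), in each case short of a call. Against medium the difference of 0.18 (95% interval -0.05 to 0.41, adjusted p = 0.196, limma) did not pass, and it passed under median-of-ratios scaling (0.37, adjusted p = 0.0185) and quantile scaling (0.35, adjusted p = 0.0208).

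**Figure D2:**
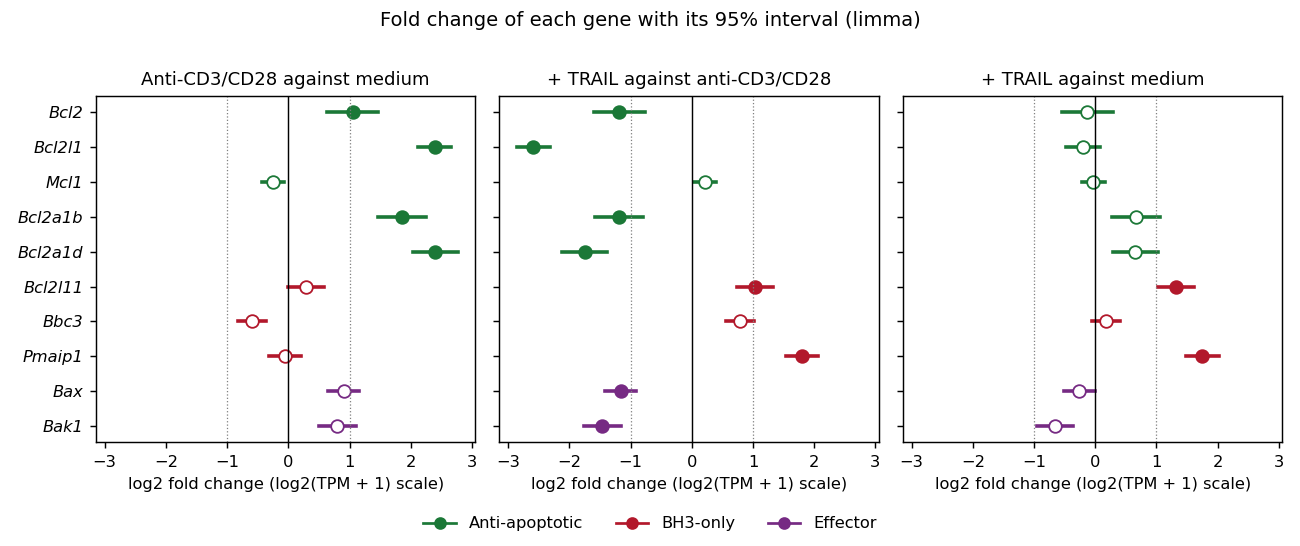
Log2 fold change of each of the 10 genes in the 3 comparisons, from limma on log2(TPM + 1), with lines for the 95% interval, dotted lines at 1 and -1, and filled points for called genes. Bcl2l11 and Pmaip1 are the only members whose points lie past 1 for TRAIL-treated against medium libraries, at 1.31 and 1.75.

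The effectors rose with stimulation and fell with TRAIL, as 4 of the anti-apoptotic genes did. Bax (ENSMUSG00000003873, chr7:45461697-45466898, minus strand) was at 88.3, 77.0 and 92.4 TPM in medium, 185, 148 and 152 TPM after stimulation and 69.7, 69.8 and 74.8 TPM with TRAIL. The 3 groups did not overlap, the TRAIL-treated libraries were the lowest, and stimulated replicate 1 was the highest. Bax rose by 0.90 with stimulation (SE 0.11, adjusted p = 4.2e-05, limma), short of a call, and fell by 1.16 with TRAIL (SE 0.11, adjusted p = 6.7e-06, limma), a call that was lost under quantile scaling (-0.94). Against medium the difference of -0.26 (95% interval -0.51 to -0.01, adjusted p = 0.0996, limma) did not pass after adjustment, and it passed in 1 of 19 alternatives (adjusted p = 0.0383, limma). Bak1 (ENSMUSG00000057789, chr17:27019810-27029009, minus strand) was at 49.3, 66.5 and 61.3 TPM in medium, 92.1, 105 and 113 TPM after stimulation and 40.1, 37.8 and 32.8 TPM with TRAIL. Its groups did not overlap either. It rose by 0.80 with stimulation (SE 0.13, adjusted p = 3.7e-04, limma) and fell by 1.46 with TRAIL (SE 0.13, adjusted p = 4.9e-06, limma). Bak1 was the only member to pass as lower with TRAIL than in medium, by -0.66 (SE 0.13, adjusted p = 5.1e-03, limma). The gene Ggnbp1 lies on the opposite strand across Bak1, and its 2 identifiers did not exceed 7.24 and 2.67 TPM.

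Because TPM is per length, the members could be added by class, as a description without a test. The anti-apoptotic genes summed to 657 ± 27.7 TPM in medium, 922 ± 8.33 TPM after stimulation and 677 ± 14.2 TPM with TRAIL (SD, n = 3). The BH3-only genes summed to 79.0 ± 2.21, 75.2 ± 6.42 and 174 ± 7.32 TPM, and the effectors to 145 ± 8.10, 265 ± 12.1 and 108 ± 1.32 TPM. In other words, stimulation went with more transcript of the 5 anti-apoptotic and 2 effector members and about the same of the 3 BH3-only members. The TRAIL-treated libraries held more of these 3 BH3-only genes and less of the other members than the stimulated ones. Other BH3-only genes are outside the sum, which depends on that choice. Bnip3 was at 8.15, 105 and 5.47 TPM, Bnip3l at 91.9, 120 and 98.1 TPM and Bid at 37.7, 38.2 and 19.5 TPM. Bad was at 11.9, 15.9 and 9.67 TPM, and Bmf, which went the other way, at 14.8, 1.77 and 9.42 TPM. Sums and ratios with these genes added were not computed. The anti-apoptotic sum was 8.33 ± 0.550 times the BH3-only sum in medium, 12.3 ± 1.01 times after stimulation and 3.88 ± 0.0889 times with TRAIL. The ranges of this ratio over libraries, 7.77 to 8.87, 11.6 to 13.5 and 3.78 to 3.94, did not overlap. A single factor per library leaves this ratio as it is, since both sums come from the same library, and it was not computed under quantile scaling.

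**Figure D3:**
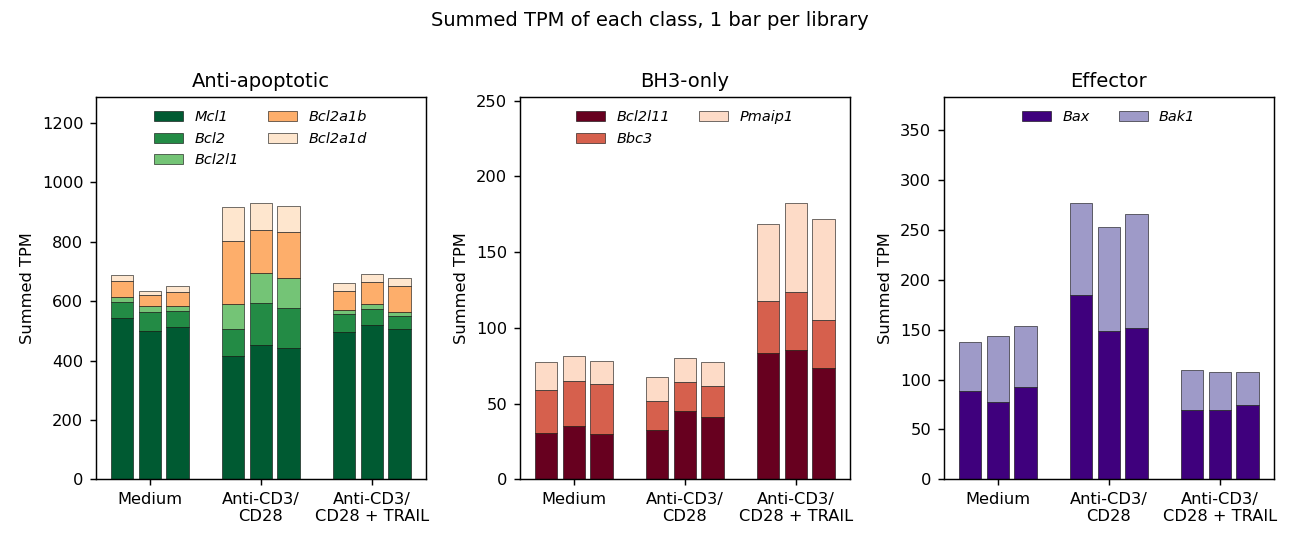
Summed TPM of the 5 anti-apoptotic, 3 BH3-only and 2 effector genes in each of the 9 libraries, in bars stacked by gene on axes from 0. The BH3-only sum averages 174 TPM in the TRAIL-treated libraries, above 79.0 TPM in medium and 75.2 TPM in stimulated libraries.

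The make-up of each class also moved. Mcl1 held 78.9% of the anti-apoptotic TPM in medium, 47.3% ± 1.74 after stimulation and 75.0% with TRAIL. The share of the 2 Bcl2a1 copies went from 9.69% ± 1.53 to 29.1% ± 5.60 and 15.0% ± 1.54, and that of Bcl2l1 from 2.68% to 10.4% and 2.24%. Without Mcl1, the anti-apoptotic sum was 139 ± 4.39 TPM in medium, 486 ± 13.0 TPM after stimulation and 169.5 ± 1.42 TPM with TRAIL. Of the TPM of the 3 BH3-only members, Pmaip1 held 21.2%, 21.5% and 33.8%, and Bbc3 38.4%, 26.2% and 19.8%. Bim is known to be held by BCL2 and BCL-XL, and Noxa by MCL1, and the transcript ratios of these partners were taken per library. Bcl2l11 was at 0.560 times the level of Bcl2 in medium, 0.328 times after stimulation and 1.56 ± 0.178 times with TRAIL. Against Bcl2l1 it was at 1.83, 0.410 and 5.35 ± 0.0644 times. Mcl1 was at 31.1 times the level of Pmaip1 in medium, 27.2 times after stimulation and 8.70 ± 1.02 times with TRAIL. Each ratio was lowest or highest in the TRAIL-treated libraries.

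The order of the levels changed with the group, where neighbours are called apart only if their 3 libraries did not overlap. In medium the order was Mcl1, Bax, Bak1, Bcl2, Bcl2a1b, Bcl2l11, Bbc3, Bcl2a1d, Bcl2l1 and Pmaip1, and Bak1 and Bcl2, Bcl2l11 and Bbc3, and the last 3 genes could not be ordered. After stimulation it was Mcl1, Bcl2a1b, Bax, Bcl2, Bak1, Bcl2a1d, Bcl2l1, Bcl2l11, Bbc3 and Pmaip1, with overlap between Bcl2a1b and Bax and along the run from Bcl2 to Bcl2l1. With TRAIL it was Mcl1, Bcl2l11, Bcl2a1b, Bax, Pmaip1, Bcl2, Bak1, Bbc3, Bcl2a1d and Bcl2l1, with overlap along the run from Bcl2l11 to Bax, between Pmaip1 and Bcl2 and between Bak1 and Bbc3. Bcl2l11 thus stood at rank 6 in medium, 8 after stimulation and 2 with TRAIL, Pmaip1 at 10, 10 and 5, and Bcl2l1 at 9, 7 and 10.

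Of the other genes of the family, 6 (Bcl2l10, Bcl2a1c, Bik, Hrk, Bok and Bcl2l15) did not reach the filter. Of the anti-apoptotic genes outside the 10, Bcl2l2, which encodes BCL-W, was at 3.83 ± 0.398 TPM in medium, 11.4 ± 0.649 TPM after stimulation and 2.42 ± 0.177 TPM with TRAIL, called higher at 1.36 and then lower at -1.85 (adjusted p = 2.5e-06 and 2.7e-07, limma), and it passed as lower with TRAIL than in medium at -0.49 (adjusted p = 0.0094, limma). Bcl2a1a, a further copy of A1, was at 10.2, 18.7 and 8.79 TPM, passed as higher with stimulation at 0.82 without a call (adjusted p = 0.0019, limma), and was called lower with TRAIL than with stimulation alone at -1.01 (adjusted p = 4.8e-04, limma).

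The other BH3-only genes varied in direction. Bid, the link from death receptors to mitochondria, was at 37.7 ± 2.30 TPM in medium, 38.2 ± 1.53 TPM after stimulation and 19.5 ± 1.54 TPM with TRAIL, and was lower with TRAIL by -0.94 against stimulation alone and by -0.92 against medium (adjusted p = 1.2e-05 and 1.3e-04, limma), short of a call. Bmf, a BH3-only gene of detachment and stress, was called lower with stimulation at -2.50 and higher with TRAIL at 1.89 against stimulation alone (adjusted p = 1.8e-07 and 1.5e-06, limma), with means of 14.8, 1.77 and 9.42 TPM. Bnip3, a mitophagy receptor induced by hypoxia, was at 8.15, 105 and 5.47 TPM and was called higher at 3.54 and then lower at -4.04 (adjusted p = 1.3e-08 and 6.8e-09, limma). Bnip3l, its relative, was at 91.9, 120 and 98.1 TPM and passed at 0.38 and -0.29 without a call. Bad, a BH3-only protein controlled by phosphorylation, was at 11.9, 15.9 and 9.67 TPM and passed at 0.38 and -0.65. Of the 5 tested, 0 were called against medium in the TRAIL-treated libraries in limma, and 3 (Bid, Bmf and Bnip3) were lower both after adjustment and at an unadjusted p under 0.05, beside 4.62% of all genes called and 24.6% passing as lower.

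Of the less studied relatives, Bcl2l12 was at 35.3, 27.1 and 16.9 TPM and was called lower with TRAIL than in medium at -1.02 (adjusted p = 9.6e-04, limma). Bcl2l14 was at 2.75, 4.86 and 1.49 TPM and was called lower with TRAIL than with stimulation alone at -1.24 (adjusted p = 4.2e-05, limma). Bcl2l13 was at 20.4, 20.1 and 19.5 TPM and passed in 0 of the 3 comparisons.

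Downstream of the mitochondrion, 14 genes of the apoptosome, caspases and their inhibitors were tested. With stimulation 3 were called higher and 0 lower, beside 12.4% and 19.5% of all genes. With TRAIL against stimulation alone 0 were called higher and 2 lower, beside 16.6% and 14.3% of all genes. Against medium 0 were called in either direction in limma, beside 2.49% and 2.13% of all genes. There, 3 passed as lower (Casp9, Diablo and Xiap, named after their values were seen), beside 24.6% of all genes, and 5 were lower at an unadjusted p under 0.05. Casp6, an executioner caspase, was at 26.8 ± 4.54 TPM in medium, 196 ± 26.2 TPM after stimulation and 20.1 ± 0.704 TPM with TRAIL, at 2.83 and then -3.22 (adjusted p = 3.9e-08 and 1.9e-08, limma). Cycs, the gene of cytochrome c, was at 35.7, 88.9 and 36.4 TPM, at 1.31 and then -1.26 (adjusted p = 2.3e-05 and 3.0e-05, limma). Endog, a mitochondrial nuclease, was at 11.0, 27.2 and 13.2 TPM and was called higher with stimulation at 1.22 (adjusted p = 1.3e-05, limma). The median log2 fold change of the 14 was 0.47, -0.72 and -0.20 in the 3 comparisons, beside -0.15, 0.01 and -0.18 over all genes.

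Of the genes known to control the turnover of the MCL1 protein, 5 of 6 were tested and 0 were called in any comparison in limma, where 2, 2 and 1 had an unadjusted p under 0.05, beside 31.9%, 30.9% and 4.62% of all genes called. Fbxw7 and Marchf5, both ubiquitin ligases, passed as higher with stimulation (0.84 and 0.55) and as lower with TRAIL against stimulation alone (-0.48 and -0.70). In stimulated replicate 1, the library lowest in Bcl2 among the stimulated ones, Huwe1 and Usp9x were at 40.6 and 25.4 TPM, where the other stimulated libraries were at 132 and 134 TPM and at 49.8 and 52.4 TPM. These 4 genes are named after their values were seen.

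Since Pmaip1, Bbc3 and Bax are known targets of p53, other p53 genes were set beside them. Of 10 tested, 5 were called higher and 1 lower with stimulation, beside 12.4% and 19.5% of all genes. With TRAIL against stimulation alone 1 was called higher and 6 lower, beside 16.6% and 14.3%, and against medium 2 were called higher and 0 lower, beside 2.49% and 2.13%. Cdkn1a, the inhibitor p21, was at 1.76 ± 0.177 TPM in medium, 63.0 ± 2.14 TPM after stimulation and 15.8 ± 3.24 TPM with TRAIL, and Sesn2, a stress-induced regulator of mTORC1, at 6.57 ± 0.243, 70.8 ± 6.94 and 14.5 ± 0.562 TPM. These 2 were called lower with TRAIL than with stimulation alone (-1.95 and -2.20) and higher than in medium (2.59 and 1.04). Phlda3, Aen and Perp were called higher with stimulation (2.14, 1.18 and 1.78) and lower with TRAIL (-2.34, -1.56 and -1.56), and Zmat3 was called lower with TRAIL (-1.25). Trp53inp1 went the opposite way, called lower with stimulation at -2.002 and higher with TRAIL at 1.94, with means of 186, 45.5 and 177 TPM. Trp53 itself was at 136, 136 and 90.4 TPM, with differences of 0.02, -0.59 and -0.57, of which the last 2 passed. Mdm2, the ubiquitin ligase of p53, named after its values were seen, passed as higher with TRAIL against stimulation alone and against medium, at 0.37 and 0.34, without a call. Ccng1, also named after its values were seen, passed as lower with TRAIL than in medium at -0.52 (adjusted p = 0.0064, limma). Of the 10 tested, 3 passed as higher and 2 as lower there, beside 8.03% and 24.6% of all genes.

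**Figure D4:**
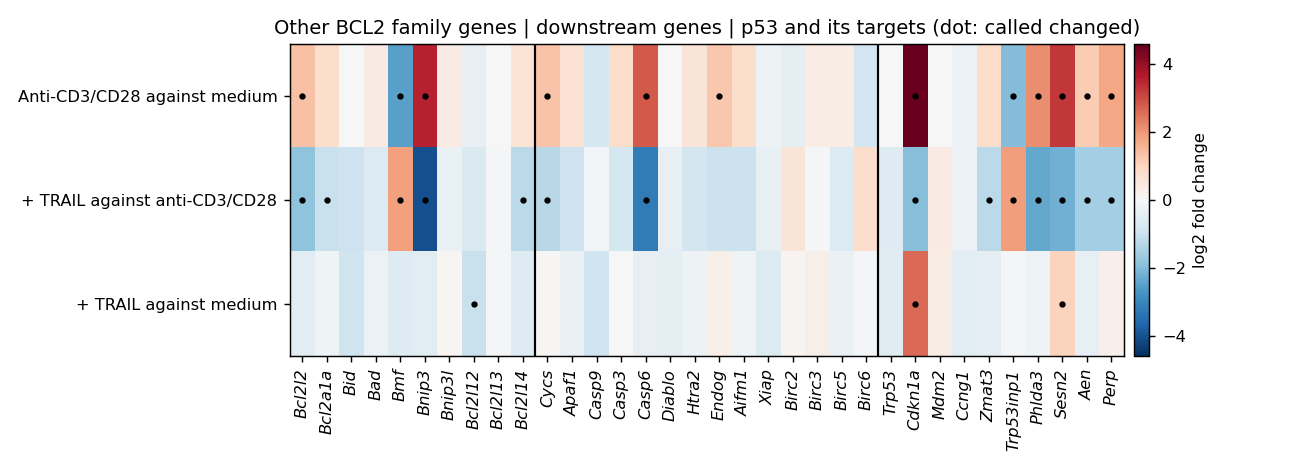
Log2 fold changes (limma, log2(TPM + 1) scale) as colours, red for higher and blue for lower, with 1 column per gene outside the 10 members, 1 row per comparison and a dot where a gene was called. In the row of TRAIL-treated against medium libraries the dots are at Bcl2l12 (-1.02), Cdkn1a (2.59) and Sesn2 (1.04).

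For each called member, the 2 genes nearest in pattern were sought among the other 15526 genes tested, by the root mean square difference of log2(TPM + 1) centred over the 9 libraries. Bcl2l1 was nearest to Mcm3, a subunit of the replicative helicase (0.0495), with means, in the order medium, stimulated, TRAIL, of 44.7, 232 and 36.1 TPM, and to Yars (0.0733), a tRNA synthetase. Bcl2 was nearest to Pdcd11 (0.0636) and Nomo1 (0.0645), and Bax to Mrpl50 (0.0716) and Arl1 (0.0717). Bak1 was nearest to E2f4 (0.0731), a cell cycle transcription factor, and to Tufm (0.0821), a mitochondrial elongation factor. Bcl2a1b was nearest to Srgn (0.0728), the core protein of secretory granules, with means of 583, 2228 and 932 TPM, and Bcl2a1d to Gm14681 (0.121) and Snhg4 (0.124). The second gene for Bcl2a1b, Gm25432, was at 0.126. The genes nearest to Bcl2l11 were Snx18 (0.0680), a sorting nexin with means of 25.8, 30.2 and 65.7 TPM, and C920009B18Rik (0.112). For Pmaip1 they were Dusp8 (0.0825), a MAPK phosphatase with means of 0.222, 0.208 and 3.36 TPM, and Acot2 (0.109), a mitochondrial thioesterase with means of 14.1, 13.7 and 44.8 TPM. Nearness describes the profile over these libraries only.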

How the data were processed

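RNA was measured in 9 libraries, and the labels gave each its group and its replicate number. Total RNA (1 µg, TRIzol) was made into mRNA libraries with a SureSelect XT HS2 kit and sequenced as paired reads of 150 bases on a NovaSeq. The submitters' processing notes name Trimmomatic 0.36, HISAT2 2.1.0, SAMtools 1.2, StringTie 2.1.2 and DESeq2. What the authors deposited is a single table of TPM for 55487 genes, with each library scaled to the same total. The notes name a human build, whereas the study's methods name GRCm38, and 99.34% of the 55227 genes found in GENCODE M21 had the same GRCm38 position in the table. The program behind the TPM values, the annotation release and the strand setting are not given in the sources used here. Since TPM carries no read totals, depth is unknown and no counting interval is given. The value 0.0001 TPM was held by 57.65 to 60.13% of genes in each library, and 25 to 41 genes per library were lower still. Whether 0.0001 TPM stands for an estimate of 0 or for none is not given in the sources used here.

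Groups were compared on log2(TPM + 1), with a pseudocount of 1, by limma 3.58.1 in R 4.3.3 (lmFit, eBayes with a trend) for the 15536 genes that reached 1 TPM in 3 or more libraries, with all 9 libraries in a single fit and group as the only factor. P-values were Benjamini-Hochberg adjusted over all genes tested, and the test was checked on simulated data. Class sums, ratios and orders carry no test. Sequences were read from GENCODE M21 transcripts and RefSeq promoter windows with Python 3.11.15 and Biopython 1.88. The members, gene lists, motifs and rules were chosen with earlier results of these data known. The text names all members, all other family genes, every gene of the remaining lists, other than the marker lists, called in a comparison, and the 2 genes nearest in pattern to each called member, and says where a gene was named after its values were seen. The alternatives varied the pseudocount (0.1 and 5), the filter (none and 5 TPM), the scaling and the fold threshold (0.5), summed the Bcl2a1 copies, dropped the variance trend, added a replicate block, fitted only the groups compared, and left out each library in turn. The order of levels under median-of-ratios scaling was added after seeing the data. The values of 1 gene of the downstream list are not reported here.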

Additional observations from a re-analysis of the deposited data

How the results depend on the processing

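The TPM scale holds no depth, so counting error could not be separated from the spread between 3 libraries. The direction was kept in most alternatives. Over 567 alternative values of single members, 537 kept their direction and their side of an adjusted p of 0.05, 16 no longer passed it, 6 newly passed it, and 8 changed direction. A call, which also needs the fold threshold, was lost in 8 values, all still past the p. The changes of direction were in differences that did not pass. Pmaip1 for stimulated against medium libraries went to 0.036 under median-of-ratios scaling, 0.16 under quantile scaling and 0.017 without medium replicate 1 (-0.12 to 0.017 over the libraries left out). Bcl2 for TRAIL-treated against medium libraries went to 0.057, 0.026 and, without TRAIL-treated replicate 3, 0.011 (-0.24 to 0.011 over the libraries left out), and Mcl1 there went to 0.16 under median-of-ratios scaling and 0.0047 without medium replicate 1 (-0.058 to 0.0047). The causes were not tested.

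Against 4959, 4800 and 718 genes called in the 3 comparisons (stimulated against medium, TRAIL-treated against stimulated, TRAIL-treated against medium), a pseudocount of 5 gave 2946, 2883 and 332, a pseudocount of 0.1 gave 1167 in the last, and a threshold of 0.5 gave 9077, 8957 and 3438. Of the members, 7 and 5 were then called in the first and last comparison, where 4 and 2 were called at a threshold of 1. Leaving out each library gave 4749 to 5202, 4649 to 4950 and 650 to 815 genes called, and 3 to 4, 7 to 8 and 2 to 2 members. The 2 members lost in this way were Bcl2, without stimulated replicate 2 or 3, and Bcl2l11, without stimulated replicate 1 or TRAIL-treated replicate 2. Median-of-ratios scaling moved the median of all genes by 0.08, 0.08 and 0.17, and quantile scaling by 0.19, -0.06 and 0.14. The split of higher and lower calls went from 1926 and 3033, 2580 and 2220, and 387 and 331 to 2157 and 2762, 2862 and 1958, and 534 and 186 under the first, and to 2434 and 2240, 2201 and 2331, and 526 and 219 under the second. Under quantile scaling 5 members were called with TRAIL against stimulation alone, in place of 8, since Bcl2 (-0.997), Bcl2a1b (-0.97) and Bax (-0.94) came short of the threshold. The anti-apoptotic sum was 614 TPM in medium and 723 TPM with TRAIL under median-of-ratios scaling, and with Bcl2a1a and Bcl2a1c added it was 941 TPM after stimulation, and the anti-apoptotic share 70.8% with TRAIL.

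The deviations of libraries with the same number had correlations from -0.306 to 0.295, which do not show a pairing, and no source says that a number marks a shared origin. With the replicate block 4960, 4802 and 714 genes and 4, 8 and 2 members were called, and Mcl1 for TRAIL-treated against stimulated libraries had an adjusted p of 0.0708 in limma.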
